A study of Mus musculus with 16 samples.

Results

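Mitochondrial protein import genes were followed in whole mouse uterus 6 h after an injection of 17β-estradiol (E2). The genes were chosen by name from the array: non-control probes whose gene name starts with Timm or Tomm and a digit, or is Samm50, Pmpca, Pmpcb, Grpel1, Grpel2, Chchd4, Pam16, Mtx1 or Mtx2. That rule gave 31 genes with 51 probes, of 34741 genes and 55681 probes in all, and 25862 genes were tested. All 31 genes entered the test, and 30 of them were well above background on all 16 arrays, on the probe that stood for the gene. The exception was Timm8a2, well above background on 5 of 16 arrays. The probe that stood for Tomm20l has no genome position in the files, and the other Tomm20l probe was well above background on 0 of 16 arrays.

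The samples form 4 groups of 4 one-colour arrays, each array carrying Cy3-labelled RNA made from 200 ng of total RNA. The groups were mice of the genotype Arg260 given E2 (8 µg/kg), Arg260 mice given vehicle (PLB, 0 µg/kg), wild-type (WT) mice given E2 and WT mice given PLB. All mice had been ovariectomised at 4 weeks of age and kept for 2 to 3 weeks on normal chow, and E2 or vehicle was injected subcutaneously in castor oil. The series title ties Arg260 to the estrogen receptor ERα, through which E2 acts on the uterus, and the labels do not say how the allele was made.

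Nearly all proteins of a mitochondrion are encoded in the nucleus, made in the cytosol and imported. The TOM complex of the outer membrane holds receptors (Tomm20, Tomm22, Tomm70a) and the Tomm40 channel, with small subunits (Tomm5, Tomm6, Tomm7). Behind it, small Timm chaperones carry hydrophobic precursors through the intermembrane space, Timm22 inserts carrier proteins into the inner membrane, and the Timm23 complex passes precursors with a presequence to a motor in the matrix, where a peptidase removes the presequence. E2 makes the uterus of an ovariectomised animal grow, which draws on new protein and mitochondria.

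Values are log2 processed spot signals minus the log2 of that array's 75th percentile, so 0 is the 75th percentile of the array; a difference of 1 is a doubling of signal. Between 61.6% and 70.6% of non-control spots were well above background per array and none was saturated. Arrays of 1 group correlated at 0.980 to 0.993 (Pearson, across genes). In Arg260 PLB, replicate 4 stood apart for these genes: averaged over the 31 genes and set against the WT PLB mean, it read 0.18, against −0.03 to 0.04 on the other 3 arrays. The same array had the highest marker means of its group for stroma (5.21, the others 4.67 to 4.78), smooth muscle (6.10, the others 5.21 to 5.75), epithelium (3.00, the others 2.54 to 2.68) and striated muscle (0.56, the others −0.71 to −0.0058), and their part in its values was not tested. Without it the Arg260 count given below stayed at 28 genes higher and 1 lower, and the median change was 1.03. Each sample title opens with a number of its own, but the labels do not say whether it marks an animal, so p-values cover only the spread between these samples, which may be technical.

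Promoter sequence is shown for 6 genes, picked among those that rose with E2, whose windows hold letters of factors known from other genes for mitochondrial proteins. Genes with such letters that were not called with E2 are named below and not shown. The sequences are from RefSeq on GRCm38.p6, end at the base before the annotated start and run 5′ to 3′ on the gene's strand. Capitals mark a searched motif on either strand.
Timm10, chr2:84826921-84827020, plus strand: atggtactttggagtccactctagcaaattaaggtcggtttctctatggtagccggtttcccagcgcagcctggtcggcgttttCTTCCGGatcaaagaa
Timm23, chr14:32201892-32201991, minus strand: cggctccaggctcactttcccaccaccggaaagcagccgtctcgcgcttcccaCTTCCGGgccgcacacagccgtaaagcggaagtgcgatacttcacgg
Tomm70a, chr16:57121614-57121713, plus strand: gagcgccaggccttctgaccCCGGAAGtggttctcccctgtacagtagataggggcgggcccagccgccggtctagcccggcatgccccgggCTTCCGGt
Tomm22, chr15:79670768-79670867, plus strand: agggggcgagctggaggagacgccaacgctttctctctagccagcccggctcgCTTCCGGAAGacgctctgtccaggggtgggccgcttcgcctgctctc
Timm9, chr12:71136676-71136775, minus strand: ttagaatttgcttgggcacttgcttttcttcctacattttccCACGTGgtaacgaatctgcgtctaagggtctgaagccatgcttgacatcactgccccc
Tomm20, chr8:126945922-126946071, minus strand: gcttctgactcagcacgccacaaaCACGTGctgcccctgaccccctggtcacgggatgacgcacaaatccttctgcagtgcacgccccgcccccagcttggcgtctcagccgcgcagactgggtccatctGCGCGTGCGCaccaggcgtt
In the first 4, the capitals are the ETS core CCGGAAG or its complement, the letters read by GA-binding protein, a factor known for genes of mitochondrial proteins. In Tomm22 a copy on each strand overlaps. In Timm9 and Tomm20 the capitals CACGTG are the E-box, read by Myc among others, and the second stretch in Tomm20 is the core read by nuclear respiratory factor 1 (NRF1).

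The windows searched ran from 250 bases before to 50 bases after each start, for 27025 genes; 28 of the 31 import genes had one, and Grpel2, Tomm40l and Tomm7 are named only. The ETS core was in 12 of 28 import genes (42.9%) and in 9.93% of all genes. It was in Grpel1, Mtx1, Mtx2, Pmpca, Pmpcb, Timm10, Timm23, Timm8a2, Timm8b, Tomm22, Tomm34 and Tomm70a. These took in strong and weak responders, and Timm8a2 and Tomm34, which were not called with E2. The E-box was in 5 of 28 (17.9%), Timm10, Timm8a1, Timm9, Tomm20 and Tomm20l, and in 8.09% of all genes. The NRF1 core was in 4 of 28 (14.3%), Chchd4, Pam16, Timm8b and Tomm20, and in 5.19% of all genes. The palindromic consensus of the estrogen response element was in 0 of 28 and in 0.0740% of all genes, TGACGTCA (the cAMP response element) in 0 of 28 and 2.03%, and TGATGNAA (an Atf4 core) in 0 of 28 and 4.51%. The median log2 change with E2 in WT was 0.99 for import genes with the ETS core and 1.15 for those without it. For the E-box these medians were 1.86 and 0.90, and for the NRF1 core 1.18 and 1.09. These counts and medians describe genes by the letters in their windows and were not tested.

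With E2, 28 of the 31 import genes rose, 1 fell (Tomm7) and 2 did not pass the test (Timm8a2 and Tomm34), in Arg260 and in WT uteri, and the 29 genes called were the same in both genotypes. That is 90.3% called higher, against 33.6% of all genes tested in Arg260 and 31.9% in WT (limma, adjusted p under 0.05 over all 25862 genes). The share called lower over all genes was 30.7% in Arg260 and 31.7% in WT. The median log2 change of the 31 genes was 1.04 in Arg260 and 1.05 in WT, beside 0.017 and −0.024 over all genes. A rise of at least 2-fold was called for 16 of 31 (51.6%) in each genotype, beside 14% and 13.4% of all genes in Arg260 and WT, and a fall of at least 2-fold for 0 of 31, beside 14.6% and 15.1% of all genes. On the arrays themselves, every E2 array read above every PLB array for 28 genes in each genotype, which 31.2% of all genes did in Arg260 and 30.1% in WT. For 1 gene every E2 array read below every PLB array, beside 27.6% and 29% of all genes. The size of the rise depends on the scaling: under quantile normalisation the medians were 0.67 in Arg260 and 0.75 in WT, with 24 and 22 genes called higher and 2 lower. RNA came from whole uterus, so a change in the cells present and a change in RNA per cell cannot be told apart.

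**Figure D1:**
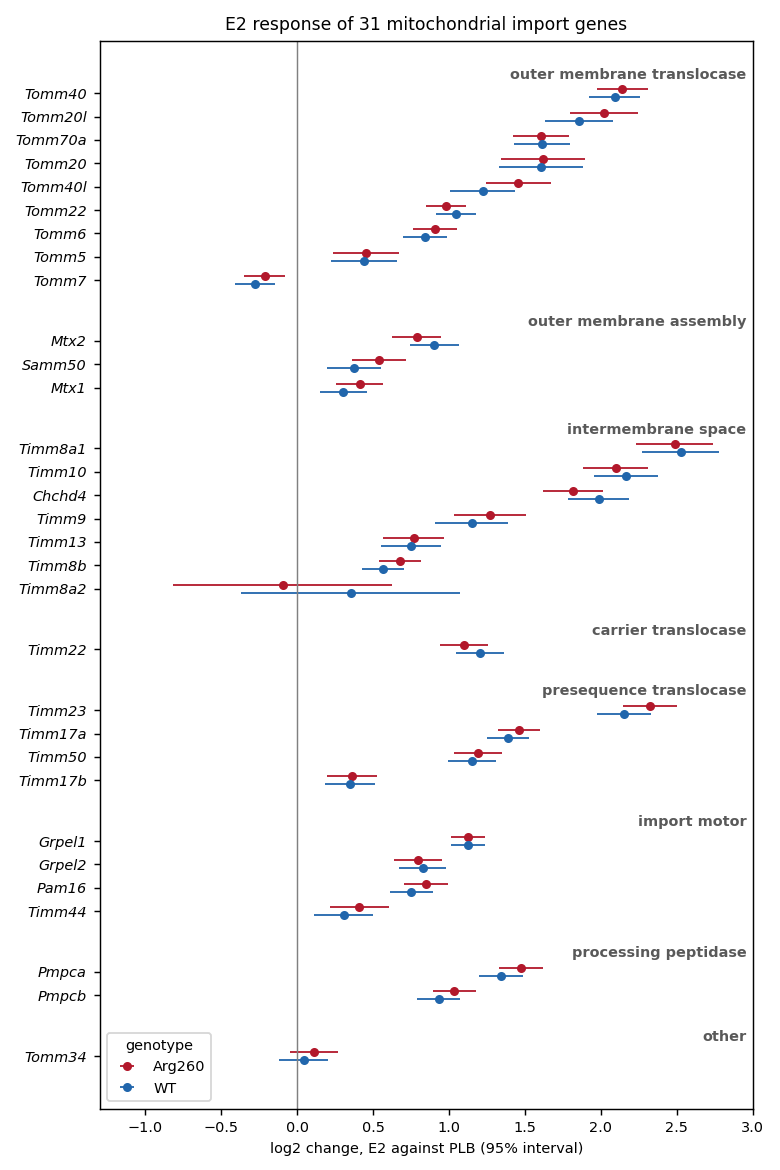
Log2 change of each of the 31 import genes with E2 against PLB (x axis; points, with 95% intervals from the limma fit, n = 4 arrays per group), grouped by the step of import, Arg260 above WT for each gene. All but Tomm7, Timm8a2 and Tomm34 lie right of 0 with intervals that exclude it, from 0.30 to 2.52; under quantile normalisation Mtx1, Tomm5, Tomm34, Timm44 (WT) and Timm17b (Arg260) lie left of 0.

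Most genes of the outer membrane translocase rose: of its 9 genes 8 rose and 1 fell in each genotype, with a median change of 1.46 in Arg260 and 1.22 in WT. Tomm40, the channel through which nearly all precursors pass, read 4.51, 4.30, 4.31 and 4.37 in Arg260 E2, against 2.20, 2.16, 2.17 and 2.40 in Arg260 PLB. In WT it read 4.21, 4.25, 4.44 and 4.16 with E2, against 2.19, 2.17, 2.20 and 2.13 with PLB. The groups were far apart, and the change was 2.14 ± 0.08 (SE, n = 4 per group; 4.41-fold) in Arg260 and 2.09 ± 0.08 (4.26-fold) in WT, with adjusted p of 4.67e-11 and 5.33e-11 by limma. A second Tomm40 probe changed by 2.12 in Arg260 and 2.09 in WT. The probe used for these values lies at chr7:20286707-20286766 of mm9, the build of the array files.

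The receptors rose as well. Tomm70a, which takes in carrier precursors handed over by cytosolic chaperones, read 2.94, 2.92, 2.91 and 2.98 in Arg260 E2, against 1.13, 1.22, 1.36 and 1.61 in Arg260 PLB. In WT its signal was 2.97, 2.90, 2.87 and 2.83 with E2, against 1.22, 1.27, 1.31 and 1.32 with PLB. The E2 arrays lay close together and well above PLB, although Arg260 PLB replicate 4 was the highest of the PLB arrays; the change was 1.61 ± 0.09 (SE) in both genotypes, 3.04-fold in Arg260 and 3.06-fold in WT. Tomm20, the receptor for presequences, read 5.01, 4.79, 4.46 and 4.71 in Arg260 E2, against 3.14, 3.23, 2.90 and 3.21 in Arg260 PLB. WT arrays read 4.80, 4.80, 4.59 and 4.42 with E2, against 3.16, 3.22, 2.83 and 2.98 with PLB. Tomm20 had the widest spread of these genes, yet no E2 array overlapped a PLB array, and it rose by 1.62 ± 0.13 in Arg260 and 1.61 ± 0.13 in WT. Its dimmer second probe changed by 1.72 in Arg260 and 1.63 in WT, and the dimmest by 1.24 and 1.16. Tomm22, the central receptor that also holds the complex together, rose by 0.98 in Arg260 and 1.05 in WT.

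The related genes Tomm20l and Tomm40l also rose. Tomm20l read −0.90, −0.86, −0.76 and −1.1 in Arg260 E2, against −3.15, −2.98, −2.86 and −2.71 in Arg260 PLB. In WT it read −1.04, −1.04, −1.27 and −1.31 with E2, against −3.02, −2.89, −3.08 and −3.08 with PLB. The change was 2.02 ± 0.10 in Arg260 and 1.86 ± 0.10 in WT, with no overlap. This value rests on a probe to an expressed sequence tag that has no genome position in the files; the other Tomm20l probe, on the RefSeq transcript, was not well above background on any of the 16 arrays. Tomm40l read 1.62, 1.45, 1.39 and 1.63 in Arg260 E2, against 0.13, 0.11, −0.24 and 0.26 in Arg260 PLB. In WT, Tomm40l read 1.33, 1.46, 1.49 and 1.32 with E2, against 0.26, 0.12, 0.13 and 0.21 with PLB. Its rise was 1.46 ± 0.10 in Arg260 and 1.22 ± 0.10 in WT, and groups did not overlap.

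The 3 small subunits of the outer complex differed from each other. Tomm6, which helps hold the complex together, rose by 0.91 in Arg260 and 0.84 in WT, and by 1.39 and 1.31 on a dimmer second probe. Tomm5, which stands close to the channel, rose by 0.46 (adjusted p 0.0011) and 0.44 (adjusted p 0.00144), but its values were −0.063 in Arg260 and −0.013 in WT under quantile normalisation. Tomm7, which loosens the complex in yeast, was the only import gene that fell. It read 4.79, 4.99, 4.87 and 4.95 in Arg260 E2, against 5.08, 5.22, 5.10 and 5.06 in Arg260 PLB. The WT arrays read 4.84, 4.83, 4.90 and 4.86 with E2, against 5.09, 5.21, 5.14 and 5.09 with PLB. The groups did not overlap, and the signal fell by 0.21 ± 0.06 in Arg260 (adjusted p 0.00762, limma) and by 0.28 ± 0.06 in WT (adjusted p 0.00127). The call is lost with arrays centred on their median (−0.077 in Arg260, −0.12 in WT). It is also lost within either slide of 8 arrays (−0.26 and −0.32 on slide 1, −0.17 and −0.24 on slide 2, Arg260 and WT in each pair). A dimmer second probe read −0.090 in Arg260 and −0.14 in WT. Under quantile normalisation, normexp with quantile and in the authors' deposited series table, Tomm7 was still called lower. Its change there was as low as −0.72 in Arg260 and −0.73 in WT.

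**Figure D2:**
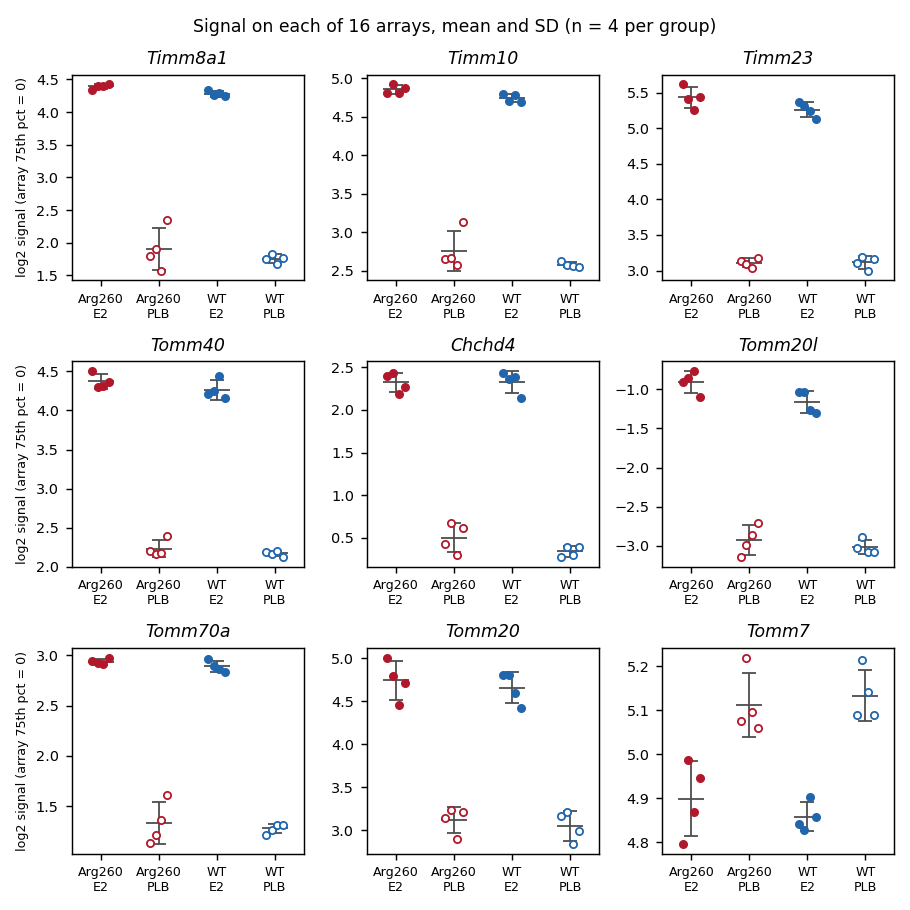
Log2 signal on each of the 16 arrays (points; 0 is the array's 75th percentile) with group mean and SD (bars, n = 4) for the 8 import genes that rose most in WT and for Tomm7; groups run Arg260 E2, Arg260 PLB, WT E2, WT PLB, filled points are E2, and each panel has its own y range. For the first 8 genes all E2 arrays lie above all PLB arrays, by up to 2.52 in the mean; for Tomm7 they lie below, by 0.21 and 0.28.

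The genes of outer membrane assembly rose less. Samm50, the core of the machine that inserts barrel proteins such as Tomm40, rose by 0.54 (adjusted p 4.99e-05) in Arg260 and 0.37 (adjusted p 0.0012) in WT; the WT call was lost under quantile normalisation (0.16, adjusted p 0.0784) and within slide 1 (0.32, adjusted p 0.115). Its partner Mtx2 read 2.99, 2.91, 2.75 and 2.88 in Arg260 E2, against 2.07, 2.06, 2.06 and 2.19 in Arg260 PLB. In WT, Mtx2 read 2.90, 2.92, 2.95 and 2.73 with E2, against 1.86, 2.05, 1.94 and 2.05 with PLB. The change of Mtx2 was 0.79 ± 0.07 in Arg260 and 0.90 ± 0.07 in WT, and no arrays overlapped. Mtx1 read 3.85, 3.86, 3.76 and 3.93 in Arg260 E2, against 3.36, 3.49, 3.40 and 3.50 in Arg260 PLB. In WT, Mtx1 read 3.68, 3.84, 3.79 and 3.70 with E2, against 3.61, 3.40, 3.34 and 3.44 with PLB. The nearest Mtx1 arrays were 3.68 with E2 and 3.61 with PLB, both in WT, and its rise of 0.41 in Arg260 and 0.30 in WT turned to −0.037 and −0.087 under quantile normalisation.

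The intermembrane space held the gene that rose most. Of its 7 genes 6 rose in each genotype, with a median change of 1.27 in Arg260 and 1.15 in WT. Timm8a1, the mouse counterpart of the gene lost in human deafness-dystonia syndrome, read 4.33, 4.40, 4.40 and 4.42 in Arg260 E2, against 1.80, 1.90, 1.57 and 2.34 in Arg260 PLB. In WT it read 4.34, 4.25, 4.28 and 4.24 with E2, against 1.76, 1.83, 1.67 and 1.76 with PLB. The E2 arrays of both genotypes fell in a narrow band, and the change was 2.49 ± 0.12 (5.60-fold, adjusted p 3.5e-10) in Arg260 and 2.52 ± 0.12 (5.75-fold, adjusted p 3.1e-10) in WT by limma. Its probe lies at chrX:131071864-131071923 (mm9), and a second probe changed by 2.59 in both genotypes.

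Timm10 and Timm9 form the ring that carries carrier precursors. Timm10 read 4.82, 4.93, 4.81 and 4.87 in Arg260 E2, against 2.66, 2.67, 2.58 and 3.14 in Arg260 PLB. In WT the signal of Timm10 was 4.80, 4.71, 4.79 and 4.69 with E2, against 2.63, 2.58, 2.56 and 2.55 with PLB. Arg260 PLB replicate 4 was again the highest PLB array, still far below every E2 array, and the change was 2.10 ± 0.10 (4.28-fold) in Arg260 and 2.17 ± 0.10 (4.49-fold) in WT. Timm9 rose less, by 1.27 ± 0.11 in Arg260 and 1.15 ± 0.11 in WT; its second probe gave 1.51 and 1.62. Chchd4 (Mia40), the oxidase that folds the small Timm proteins by forming their disulfide bonds, read 2.39, 2.43, 2.19 and 2.27 in Arg260 E2, against 0.43, 0.67, 0.30 and 0.61 in Arg260 PLB. In WT, Chchd4 read 2.43, 2.36, 2.39 and 2.14 with E2, against 0.27, 0.40, 0.31 and 0.40 with PLB. It rose by 1.82 ± 0.09 in Arg260 and 1.98 ± 0.09 in WT, without overlap.

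The partners Timm13 and Timm8b rose by 0.77 and 0.68 in Arg260 and by 0.75 and 0.57 in WT; under quantile normalisation Timm13 read 0.30 in WT, and Timm8b read 0.12 in WT and lost its call (adjusted p 0.0707, limma). Timm8b read 4.71, 4.56, 4.46 and 4.64 in Arg260 E2, against 3.90, 3.88, 3.90 and 3.97 in Arg260 PLB, and 4.41, 4.44, 4.47 and 4.38 in WT E2, against 3.87, 3.83, 3.78 and 3.95 in WT PLB. No Timm8b arrays overlapped at this scaling. Timm8a2, a close relative of Timm8a1, was dim: 1, 1, 1 and 2 of 4 arrays were well above background in Arg260 E2, Arg260 PLB, WT E2 and WT PLB. Its change was −0.094 (95% interval −0.82 to 0.63) in Arg260 and 0.35 (−0.37 to 1.08) in WT. Changes within those intervals are not excluded at this signal.

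At the inner membrane, Timm22, the pore of the carrier translocase, rose by 1.1 ± 0.07 in Arg260 and 1.20 ± 0.07 in WT. All 4 genes of the presequence translocase rose, with a median of 1.33 in Arg260 and 1.27 in WT. Timm23, its channel-forming subunit, read 5.63, 5.41, 5.26 and 5.44 in Arg260 E2, against 3.14, 3.10, 3.03 and 3.18 in Arg260 PLB. In WT, Timm23 read 5.38, 5.31, 5.24 and 5.13 with E2, against 3.10, 3.19, 3.00 and 3.17 with PLB. The groups were far apart, and the change was 2.32 ± 0.08 (5.01-fold, adjusted p 3.81e-11) in Arg260 and 2.15 ± 0.08 (4.44-fold, adjusted p 6.61e-11) in WT by limma. Timm23's second probe changed by 2.14 in Arg260 and 2.06 in WT; the probe used here lies at chr14:32993435-32993494 (mm9). Timm50, which receives precursors on the outer side of that channel, rose by 1.19 ± 0.07 in Arg260 and 1.15 ± 0.07 in WT.

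Timm17a and Timm17b are alternative partners of Timm23. Timm17a read 5.11, 5.05, 5.02 and 5.11 in Arg260 E2, against 3.60, 3.62, 3.53 and 3.69 in Arg260 PLB. In WT, Timm17a read 4.95, 4.97, 5.10 and 4.89 with E2, against 3.49, 3.64, 3.60 and 3.63 with PLB. Its change was 1.46 ± 0.06 in Arg260 and 1.39 ± 0.06 in WT, without overlap. Timm17b read 3.27, 3.26, 3.34 and 3.38 in Arg260 E2, against 2.96, 2.86, 2.92 and 3.05 in Arg260 PLB. In WT, Timm17b read 3.15, 3.21, 3.48 and 3.17 with E2, against 2.87, 2.86, 2.94 and 2.95 with PLB. Timm17b arrays did not overlap either, but its rise of 0.36 in Arg260 and 0.35 in WT was −0.017 and 0.018 under quantile normalisation.

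The import motor and the peptidase rose as whole groups. The 4 motor genes had a median change of 0.82 in Arg260 and 0.79 in WT. Grpel1, the nucleotide exchange factor of the motor's Hsp70, read 4.37, 4.29, 4.25 and 4.36 in Arg260 E2, against 3.17, 3.20, 3.23 and 3.17 in Arg260 PLB. In WT, Grpel1 read 4.21, 4.17, 4.22 and 4.12 with E2, against 3.07, 3.06, 3.04 and 3.05 with PLB. It rose by 1.12 ± 0.05 in each genotype, and a dimmer second probe gave 1.94 in Arg260 and 1.98 in WT, more than 0.5 above the first. Its relative Grpel2 read −0.13, −0.18, 0.00 and −0.08 in Arg260 E2, against −1.02, −0.88, −0.79 and −0.90 in Arg260 PLB. In WT, Grpel2 read −0.22, −0.03, −0.01 and −0.15 with E2, against −0.82, −0.91, −0.99 and −1.0 with PLB. Grpel2 rose by 0.80 ± 0.07 in Arg260 and 0.83 ± 0.07 in WT. Pam16, a regulator of the motor, rose by 0.85 in Arg260 and 0.75 in WT, and Timm44, which tethers the motor to the channel, by 0.41 in Arg260 and 0.31 in WT, although its values were 0.045 in Arg260 and −0.00030 in WT under quantile normalisation.

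The peptidase that removes presequences has 2 subunits. Pmpca, which recognises the substrate, read 1.85, 1.78, 1.78 and 1.88 in Arg260 E2, against 0.28, 0.39, 0.28 and 0.44 in Arg260 PLB. In WT, Pmpca read 1.79, 1.71, 1.72 and 1.72 with E2, against 0.46, 0.42, 0.23 and 0.47 with PLB. Its change was 1.48 ± 0.07 in Arg260 and 1.34 ± 0.07 in WT, but a dimmer second probe gave 0.94 in each. Pmpcb, the catalytic subunit, read 4.30, 4.29, 4.19 and 4.31 in Arg260 E2, against 3.21, 3.29, 3.23 and 3.22 in Arg260 PLB. In WT, Pmpcb read 4.19, 4.26, 4.24 and 4.04 with E2, against 3.18, 3.26, 3.21 and 3.36 with PLB. The subunits' arrays did not overlap between treatments, and Pmpcb rose by 1.04 ± 0.07 in Arg260 and 0.93 ± 0.07 in WT. Tomm34, a cytosolic co-chaperone that carries the Tomm name without being part of the translocase, was at 3.83 to 4.04 in Arg260 E2, against 3.74 to 3.92 in Arg260 PLB, and at 3.86 to 4.08 in WT E2, against 3.86 to 4.01 in WT PLB. These ranges overlapped. The change of Tomm34 was 0.11 (95% interval −0.05 to 0.27) in Arg260 and 0.042 (−0.12 to 0.20) in WT, and missed the test. Its call went both ways with the scaling. Under quantile normalisation the change was −0.36 and −0.38 and was called lower (adjusted p 0.00184 and 0.00118, limma). With arrays centred on their median it was 0.25 in Arg260 and 0.20 in WT and was called higher (adjusted p 0.00758 and 0.0252, limma).

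**Figure D3:**
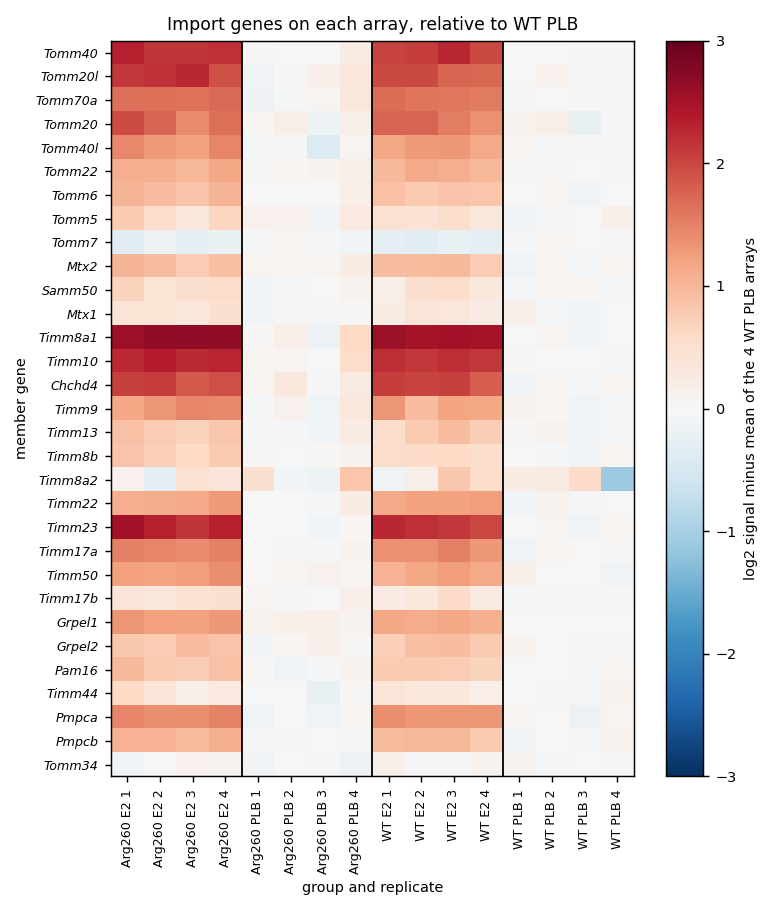
Log2 signal of each import gene (rows, in the order of the import steps) on each array (columns, Arg260 E2, Arg260 PLB, WT E2, WT PLB, replicates 1 to 4) minus the mean of the 4 WT PLB arrays; red is higher and blue lower. All 8 E2 columns are red over most rows, with Tomm7 blue and Tomm34 near white, and Arg260 PLB replicate 4 is the reddest of the PLB columns, at a mean of 0.18.

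Members that are alternatives or partners of each other responded by different amounts. For 7 pairs the per-array difference of the 2 genes was compared between E2 and PLB by an exact permutation within genotype, two-sided, with 4900 assignments. The pairs were chosen with the responses of these genes known, so the p-values describe the spread of the arrays and are not independent support. For 6 pairs the p was 0.000408, the smallest that these assignments allow, or 0.000476 after Benjamini-Hochberg over the 7 pairs; the exception was Tomm20 and Tomm20l, with an exact p of 0.00286, unchanged by the adjustment. Timm17a rose more than Timm17b by 1.07 (1.1 in Arg260, 1.04 in WT). Timm8a1 rose more than Timm8b by 1.88 (1.81 in Arg260, 1.96 in WT). Both differences exceed the spread of the per-array differences within groups, whose pooled SD was 0.07 and 0.17.

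Tomm40 rose more than Tomm40l by 0.78 (0.68 in Arg260, 0.87 in WT), and Pmpca more than Pmpcb by 0.42 (0.44 in Arg260, 0.41 in WT). That last difference rests on the brighter Pmpca probe: it was 0.19 with the mean of all probes, and the second Pmpca probe (0.94 in each genotype) stood close to Pmpcb (1.04 in Arg260, 0.93 in WT). Mtx1 responded less than Mtx2 (−0.49; −0.37 in Arg260, −0.60 in WT). Tomm20 responded less than the Tomm20l probe (−0.33; −0.40 in Arg260, −0.25 in WT). The signs of these pairs held under each of the other scalings and with the mean of all probes. That was not so for Grpel1 and Grpel2: Grpel1 rose more by 0.31 here (0.33 in Arg260, 0.30 in WT), but less under quantile normalisation (−0.17), under normexp with quantile (−0.11) and in the authors' deposited series table (−0.11). Probes differ in how steeply they follow RNA, so a difference between probes of different genes is a difference in measured signal change.

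**Figure D4:**
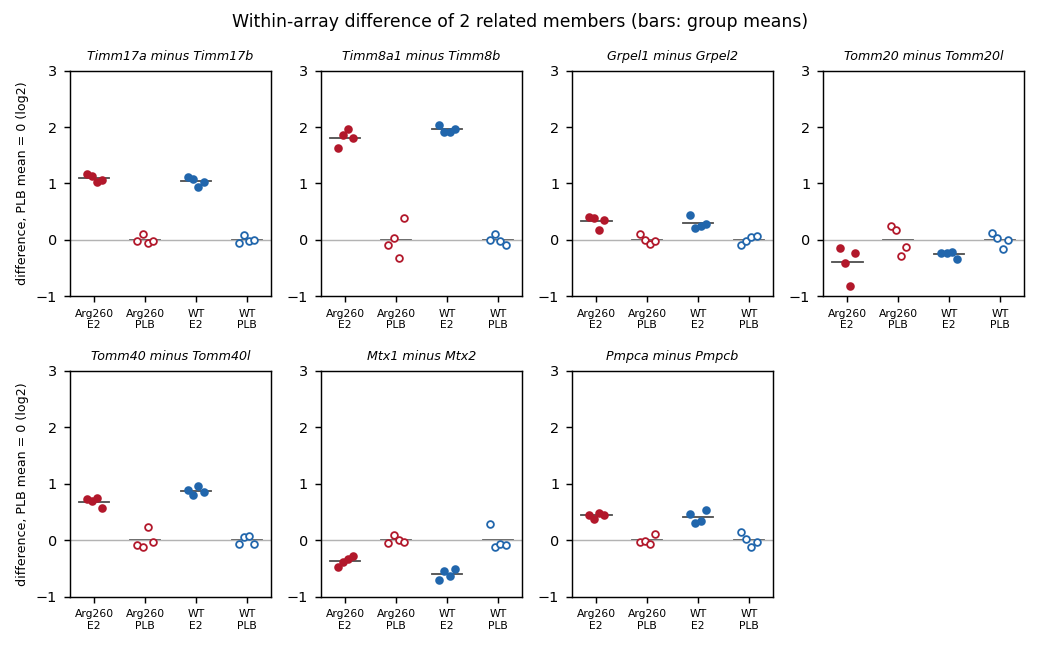
Within-array difference of 2 related import genes (log2, first gene minus second), set to 0 at the mean of the PLB arrays of the same genotype, for 7 pairs; points are arrays (filled E2, open PLB; 4 per group), bars are group means. For each pair the E2 arrays lie on the same side of 0 in both genotypes (those of Tomm20 minus Tomm20l overlap the PLB arrays in Arg260), with means from −0.33 and −0.49 (Tomm20 minus Tomm20l, Mtx1 minus Mtx2) to 1.88 (Timm8a1 minus Timm8b); under quantile normalisation Grpel1 minus Grpel2 turns to −0.17.

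The Arg260 genotype was set against WT to ask whether the E2 response of the import genes differs with the allele. No import gene, and 0 of all 25862 genes, was called for a difference of the E2 responses (limma, adjusted p under 0.05); at an unadjusted p under 0.05 the counts were 0 of 31 import genes and 961 genes in all (3.72%). The differences ran from −0.45 (Timm8a2) to 0.24 (Tomm40l), with Arg260 the larger for 21 of 31 genes. Their median was 0.048, beside 0.034 over all genes, so all genes leaned the same way. The 95% interval of the difference lay within ±0.5 for 29 genes and within ±1 for 30; the widest, for Timm8a2, was −1.47 to 0.57. Across the 31 genes the responses of the genotypes correlated at 0.983 (Pearson) and 0.985 (Spearman), a description over genes that share arrays. The same 8 genes led in both genotypes, and 30 of 31 moved the same way.

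Between genotypes within a treatment, again 0 import genes and 0 genes in all were called. At an unadjusted p under 0.05 there was 1 import gene in PLB, beside 638 genes in all (2.47%), and 3 in E2, beside 1900 in all (7.35%). Grpel1 had the smallest p of the import genes in each treatment. In E2 it read higher in Arg260 by 0.14 ± 0.05 (p 0.0191, adjusted p 0.627, limma). In PLB it read higher in Arg260 by 0.14 ± 0.05 (p 0.0189, adjusted p 0.9996, limma). In E2, 27 of 31 import genes were above 0, with a median difference of 0.090. The median over all genes was 0.029, so all genes leaned the same way, and the share of all genes above 0 was not counted. None of these differences passed the adjustment.

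Most genes listed as partners of import moved with the import genes. The list was broad and also held Vdac1, Vdac2, Vdac3, Lonp1, Clpp, Hspa8 and Hsp90ab1, which are not parts of the translocases or the motor. Of 26 partners that the rule does not name, 20 rose and none fell in Arg260, and 22 rose and none fell in WT (beside 33.6% and 31.9% of all genes higher, and 30.7% and 31.7% lower), with a median change of 0.79 and 0.73; under quantile normalisation 18 rose and 1 fell in Arg260 and 19 rose and 2 fell in WT, with medians of 0.39 and 0.43. Hspa9, the matrix Hsp70 that drives the motor, rose by 2.21 ± 0.10 in Arg260 and 2.17 ± 0.10 in WT. The matrix folding chamber rose too, Hspd1 by 1.75 in Arg260 and 1.86 in WT and its lid Hspe1 by 1.66 and 1.64. Gfer, which reoxidises Chchd4, rose by 1.58 in Arg260 and 1.74 in WT. Dnajc19, a J-protein of the motor, rose by 1.11 in Arg260 and 1.0 in WT. The proteases that cut presequence remnants or sort inner membrane proteins did not all follow at this scaling. Immp2l read 0.079 in Arg260 and 0.16 in WT, neither called. Mipep and Xpnpep3 passed the test in WT (0.29 each) and not in Arg260 (0.18 and 0.14). That difference between genotypes was itself not called. These calls depend on the scaling. Under each of the 4 other scalings Immp2l was called in WT, at up to 0.32. In Arg260, Xpnpep3 was called under 3 of them and Mipep under 1. Agk, Bcs1l and Mtx3 were not called in either genotype at this scaling. Agk and Bcs1l were each called under 1 other scaling in each genotype. Mtx3 (−0.26 in Arg260 and −0.31 in WT) was called lower under the 3 quantile-type scalings.

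Other mitochondrial families rose to a smaller median. Of 78 genes of the mitochondrial ribosome, 69 rose and 2 fell in Arg260, and 66 rose and 2 fell in WT, with a median of 0.76 and 0.74; under quantile normalisation 55 rose and 7 fell in each genotype, with medians of 0.47 and 0.46. Of 89 tested genes of the respiratory chain and ATP synthase, 64 rose and 7 fell in Arg260, and 66 rose and 8 fell in WT, with a median of 0.49 and 0.48. Under quantile normalisation that last family was split, with 34 higher and 28 lower in Arg260, 38 higher and 26 lower in WT, and medians of 0.11 and 0.15. Over all genes tested, 33.6% were called higher and 30.7% lower in Arg260, and 31.9% and 31.7% in WT. Under quantile normalisation the 25862 genes were split as well, with 8263 higher and 8652 lower in Arg260 and 8066 and 8720 in WT. The import genes' median (1.04 in Arg260 and 1.05 in WT, or 0.67 and 0.75 under quantile normalisation) was the largest of the 3 under both scalings; these are counts and medians, and the families were not tested against each other.

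**Figure D5:**
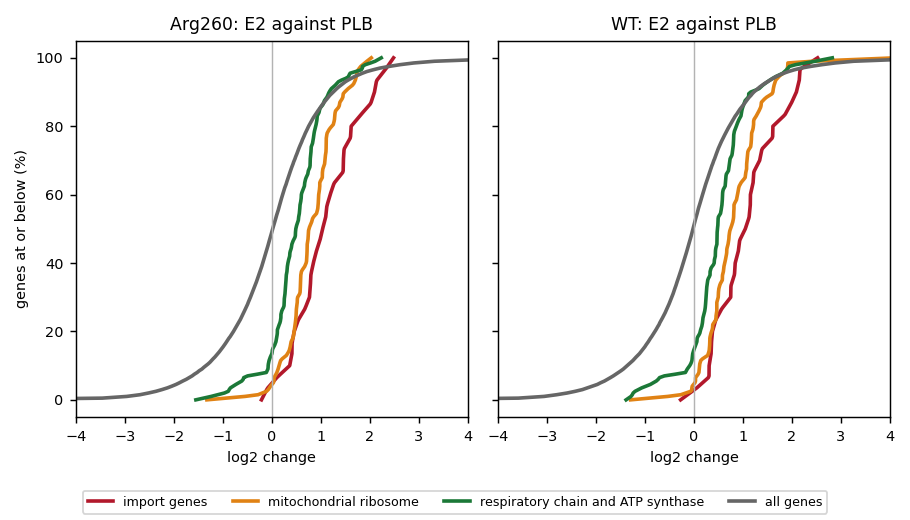
Cumulative share of genes (y axis, percent) at or below each log2 change with E2 (x axis; limma fit, n = 4 arrays per group), Arg260 left and WT right, for 31 import genes, 78 mitochondrial ribosome genes, 89 respiratory chain and ATP synthase genes and all 25862 genes. The import genes have the highest medians, 1.04 and 1.05 (0.67 and 0.75 under quantile normalisation, where the respiratory chain medians are 0.11 and 0.15), and the line of all genes crosses 50% near 0.

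Genes that control mitochondrial gene expression were also measured. Of 11 listed, 7 rose and 1 fell in each genotype. Over all genes, 33.6% were called higher and 30.7% lower in Arg260, and 31.9% and 31.7% in WT. In either direction 64.3% of all genes were called in Arg260 and 63.5% in WT, a share near that of the list. The counts of the list were equal under quantile normalisation. Under normexp with quantile and in the authors' deposited series table, Esrra was also called lower in Arg260. Atf4, a stress-responsive factor of amino acid metabolism, rose by 2.54 ± 0.10 in Arg260 and 2.66 ± 0.10 in WT, and Pprc1, a growth-responsive relative of PGC-1α, by 2.20 ± 0.17 and 2.57 ± 0.17. Nrf1 rose by 1.21 in Arg260 and 1.14 in WT, Gabpb1 by 1.11 and 1.05, Myc by 0.96 and 1.12, Tfam by 0.87 and 0.88, and Yy1 by 0.53 and 0.50. Ppargc1a (PGC-1α itself) fell by 3.35 ± 0.19 in Arg260 and by 2.82 ± 0.19 in WT. Gabpa, Esrra and Ppargc1b were not called at this scaling.

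Markers of the cells that a uterus can hold also moved with E2. The mean of 6 stroma markers was 3.92 to 4.25 in Arg260 E2, against 4.67 to 5.21 in Arg260 PLB, and 3.72 to 4.52 in WT E2, against 4.47 to 5.10 in WT PLB, with 4 of 6 markers called lower in each genotype. The mean of 6 epithelium markers was 2.67 to 3.27 in Arg260 E2, against 2.54 to 3.00 in Arg260 PLB, and 2.64 to 3.06 in WT E2, against 2.52 to 2.99 in WT PLB; 3 rose and 1 fell in Arg260, and 1 rose and 1 fell in WT. Adipocyte markers, from fat around the uterus or in it, ranged over −2.91 to 0.25 in Arg260 E2, against −0.29 to 1.31 in Arg260 PLB, and −5.27 to −0.82 in WT E2, against 0.15 to 2.18 in WT PLB, with 2 of 6 called lower in Arg260 and 6 of 6 in WT. The means of 6 markers of smooth muscle, the main tissue of the uterine wall, lay at 5.21 to 6.10 and overlapped between E2 and PLB in each genotype. Single smooth muscle markers moved both ways, with 1 called higher and 1 lower in Arg260, and 2 higher and 1 lower in WT. Cnn1 changed by 0.82 in Arg260 and 0.95 in WT, and Smtn by −1.06 and −0.84. Of 4 macrophage markers 1 rose in each genotype, while 2 fell in Arg260 and 1 in WT, and Arg260 PLB replicate 3 read 3.34 in their mean, against 1.16 to 1.52 in the rest of its group. The mean of 5 endothelium markers was 0.97 to 1.02 in Arg260 E2, against 0.95 to 1.26 in Arg260 PLB, and 0.85 to 0.98 in WT E2, against 1.20 to 1.40 in WT PLB. These markers also moved both ways, with 2 called higher and 1 lower in Arg260, and 1 higher and 2 lower in WT. Kdr changed by 1.30 in Arg260 and 1.13 in WT, and Cldn5 by −2.05 and −2.17. The mean of the striated muscle list was 0.50 to 0.87 in Arg260 E2, against −0.71 to 0.56 in Arg260 PLB, and 0.61 to 1.20 in WT E2, against −0.58 to 0.24 in WT PLB; of its 5 genes 2 were tested, and Tnnt3, a fast muscle troponin, rose by 1.43 in Arg260 and 1.79 in WT. Of 3 red blood cell genes 2 were tested and none was called, and their means were 1.55 to 2.68 in Arg260 E2, against 0.65 to 1.72 in Arg260 PLB, and 1.15 to 2.41 in WT E2, against −0.046 to 2.78 in WT PLB. The part of these shifts in the import genes' values was not tested. No marker of these lists, the adipocyte markers among them, was called for a difference of the E2 responses between genotypes.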

How the data were processed

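The authors deposited scanner files of spot intensities, made, per the file headers, by Agilent Feature Extraction (version 10.10.1.1); the processed signal is background-subtracted and not scaled between arrays. They also deposited a series table of log2 values, for which the submitters' processing notes name limma; its background correction is not given in the sources used here. It served only as an alternative.

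Here log2 processed signal minus the log2 of the array's 75th percentile was used. Outlier spots were dropped and spots of a probe averaged. Probes well above background on at least 4 of 16 arrays were kept, and the brightest probe stood for a gene. Names were updated through RefSeq, members by the file's name. The limma 3.58.1 fit in R 4.3.3 (lmFit, eBayes, 12 residual degrees of freedom) took 4 group means over all 16 arrays. Tests were two-sided, adjusted by Benjamini-Hochberg over all 25862 genes and called under 0.05. SE and 95% intervals come from it; the number of arrays limits precision. The script was tested on simulated data. The 16 arrays lay on 2 slides, 2 arrays of each group on each.

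Members, lists and pairs were chosen with earlier results of these data known. All members were named; values by array were given for the 8 largest rises in WT, any member called lower or between genotypes, and members of pairs. Alternatives were other scalings, background correction, probe filters, probe choice, priors, blocks, slides and leaving out each array. Same-numbered arrays did not deviate together (correlation of deviations −0.11 to 0.26, median 0.028, 21 of 24 pairs at or under 0.1), so numbers were not used as pairs.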

Additional observations from a re-analysis of the deposited data

Results flagged for a closer look

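Signals were screened, gene by gene and group by group, for 1 array lying far from the other 3 of its group (a gap past the critical share of the group's range in Dixon's test), over 71 import and related genes in 284 groups, where chance alone marks about 1 in 20. There were 18 such signals, 5 of them in the import genes, and several fell on the same array. Arg260 PLB replicate 4 was high for Mtx2 (2.19, the others 2.06 to 2.07), Timm13 (4.15, the others 3.84 to 3.87), Tomm6 (4.64, the others 4.45 to 4.48) and the partner Bcs1l (1.5, the others 1.09 to 1.13). Arg260 PLB replicate 3 was low for Timm44 (2.58, the others 2.80 to 2.83), and WT E2 replicate 4 was low for Pam16 (4.31, the others 4.40 to 4.42).

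Among partners, Arg260 E2 replicate 3 was low for Hspd1 (5.94), Hspe1 (5.31) and Immp1l (2.30), and WT E2 replicate 3 was high for Hspe1 (5.72) and low for Dnlz (1.60). Dnajc19 was low in Arg260 PLB replicate 2 (0.87). In WT PLB, replicate 4 was low for Gfer (−0.20) and high for Oxa1l (3.47), replicate 1 was low for Xpnpep3 (−2.50) and Gabpb1 (1.32), and replicate 3 was low for Hspa8 (7.33). Timm21, listed under an older name, read −5.14 in WT PLB replicate 2, the others 1.04 to 1.07.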

How the results depend on the processing

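Leaving out each array in turn left 28 import genes higher and 1 lower in both genotypes, with medians of 1.02 to 1.06 in Arg260 and 1.02 to 1.07 in WT. With the replicate block the counts were also 28 and 1, and 16673 genes in all were called in Arg260 and 16394 in WT; the block changed no other call of the import genes. Scaling mattered more: the median was 0.67 in Arg260 and 0.75 in WT under quantile normalisation, 0.66 and 0.75 under normexp with quantile, 0.70 and 0.69 in the authors' deposited table, and 1.17 and 1.20 with arrays centred on their median, which put the median of all genes at 0.15 and 0.13. Set against that all-gene median, the import genes stood at 1.02 in Arg260 and 1.07 in WT here and at 0.66 to 0.77 under the 3 quantile-type scalings. With the mean of all probes the Arg260 median was 1.1. The genes called lower numbered 2 (Tomm7 and Tomm34) under those 3 scalings and 0 within slide 1, within slide 2, with array medians and with the mean of all probes. The genes called higher numbered 28 in Arg260 and 26 in WT within slide 1, and 24 in each genotype within slide 2. Under those 3 scalings they numbered 24 in Arg260 and 22 or 23 in WT. With array medians they numbered 29 in each genotype, Tomm34 among them (0.25 in Arg260, 0.20 in WT). Under all 4 scalings 24 of 29 calls kept both call and direction in Arg260 and 22 of 29 in WT; the others were Mtx1, Timm17b, Timm44, Tomm5 and Tomm7, plus Samm50 and Timm8b in WT, of which Tomm7, Samm50, Timm8b, Timm44 in Arg260 and Timm17b in WT lost a call without a change of sign. Signs turned for weak responders, and the cause was not tested. Under quantile normalisation, Arg260 then WT, Mtx1 read −0.037 and −0.087, Tomm5 −0.063 and −0.013 and Tomm34 −0.36 and −0.38, with Timm17b at −0.017 in Arg260 and Timm44 at −0.00030 in WT. Under normexp with quantile, Tomm5 read −0.050 and −0.022 and Tomm34 −0.35 and −0.40, with Timm17b at −0.041 in Arg260, and Mtx1 at −0.057 and Timm44 at −0.019 in WT. In the deposited table, Mtx1 read −0.0057 and −0.048 and Tomm34 −0.34 and −0.41, with Timm17b at −0.040 and Tomm5 at −0.045 in Arg260. Tomm34 read −0.010 in Arg260 within slide 1. The dim Timm8a2 read −0.21 in WT within slide 1, 0.090 in Arg260 within slide 2 and 0.043 in Arg260 with array medians, and leaving out 1 array gave −0.23 to 0.091 in Arg260 and −0.0055 to 0.55 in WT. Grpel1 minus Grpel2 turned to −0.17 (quantile), −0.11 (normexp with quantile) and −0.11 (deposited table). Genes called for Arg260 against WT in E2, 0 in all here, numbered 1 with quantile normalisation, 3 with normexp and quantile, 2 in the deposited table, 2 with only probes well above background on all arrays, 2 with a trended robust prior and 0 to 2 when 1 array was left out (2 without Arg260 E2 replicate 3, 1 without WT PLB replicate 3); none was an import gene. Within 1 slide the pairs of genes allow too few assignments for a test.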

Other observations

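Genes of the same machinery stand under older names in the array files and fell outside the rule; they were picked after their values were seen. Timm29 (1810026J23Rik), a subunit of the carrier translocase, rose by 1.01 ± 0.07 in Arg260 and 1.07 ± 0.07 in WT. Timm10b (Fxc1), a small Timm chaperone bound to that translocase, rose by 0.49 ± 0.10 in Arg260 and 0.32 ± 0.10 in WT, but its value was as low as 0.067 in Arg260 and −0.081 in WT under the other scalings. Timm21 (1700034H14Rik), a subunit of the presequence translocase, read −0.36 in Arg260 and 1.26 in WT with SE 1.02, neither called. Without WT PLB replicate 2, an alternative chosen after seeing the data, it fell by 0.36 ± 0.11 in Arg260 (adjusted p 0.00973, limma) and by 0.29 ± 0.12 in WT (adjusted p 0.0455), against the direction of the 4 presequence translocase genes named above.

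Tomm20l and Timm9 neighbour each other on chromosome 12 in the RefSeq annotation, and their annotated spans overlap. Their probes on RefSeq transcripts read differently: the Tomm20l probe, at chr12:72222856-72222915 (mm9), was above background on no array by the deposited flag, while the Timm9 probe, at chr12:72226471-72226530, changed by 1.51 in Arg260 and 1.62 in WT. Which transcript the positionless Tomm20l probe reads was not tested.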
